A study of Saccharomyces cerevisiae with 23 samples.

Results

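The sites described here are Ty1 insertion sites that fell inside protein-coding sequence although they lay in the preferred target zone of the element, the 1 kb upstream of a nuclear tRNA gene. Intervals that shared chromosome, strand and 5′ end were counted as 1 site, and a member was a site at most 1000 bp upstream of the 5′ end of a tRNA gene whose position lay inside an annotated protein-coding gene. The galactose library held 4965 such sites among 152129 nuclear sites, or 3.26% of them (95% interval 3.17 to 3.35). The dextrose library held 148 among 11208 sites, 1.32% (95% interval 1.12 to 1.55). Of all upstream sites in galactose they made up 8.45% (95% interval 8.23 to 8.68), the other 53800 lying at non-coding positions of the same windows. Of all upstream sites in dextrose they made up 6.25% (95% interval 5.31 to 7.30), the other 2219 lying at non-coding positions. The members lay in 123 genes in galactose and 63 genes in dextrose.

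Both libraries came from the haploid Saccharomyces cerevisiae strain BY4741 (MATa his3delta1 leu2delta0 ura3delta0 met15delta0) carrying the plasmid pJEF2365. The galactose library was made from cells held in 2% galactose for 24 h and the dextrose library from cells held in 2% dextrose for 24 h. All cells had been precultured in 2% raffinose with 0.1% dextrose, and after the test sugar they were grown in dextrose for 24 h and then passed through 5-FOA, which kills URA3 cells, at 1 mg/mL for 24 h and once more for 24 h. For the test sugar, the treatment label names complete medium and the growth protocol names medium lacking uracil; which was used is not settled. Each medium had 1 library, so no difference between the media has a replicate check, no p-value is given, and every 95% interval covers counting error only, since without molecular identifiers PCR reads cannot be counted as independent molecules. The libraries held 170698 aligned intervals in galactose and 11577 in dextrose.

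Ty1 is a retrotransposon that copies itself through RNA and inserts the DNA copy through its own integrase. The integrase contacts RNA polymerase III, which transcribes tRNA genes, and insertions gather upstream of these genes, in DNA that is usually free of protein-coding sequence. An insertion in an open reading frame interrupts the protein, so the coding sequence that does reach into these windows is where the targeting zone and the genes of the cell meet.

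The windows of the 275 nuclear tRNA genes covered 268882 positions, of which 62225 (23.1%) lay in a protein-coding gene. Coding sequence was rare next to the tRNA gene and common at the far end of the window, with 1.68% of the positions in the first 200 bp and 45.8% in the last 200 bp. Of the windows, 149 held coding sequence and 126 held none. Where there was coding sequence, its nearest position lay a median of 529 bp from the tRNA gene (quartiles 356 and 687). The member sites accordingly lay farther out than the others, at a median of 548 bp in galactose and 527 bp in dextrose, against 327 bp and 223 bp for sites at non-coding positions. For this reason coding positions were set against the number of sites expected from the density of non-coding positions in the same 50 bp step of distance. The ratio of observed to expected sites is called the density ratio below, and a ratio of 1 means the non-coding density.

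Coding positions held fewer sites than non-coding positions at equal distance in both libraries. In galactose 4965 sites were observed where 12295.6 were expected, a density ratio of 0.404 (95% interval 0.392 to 0.416). In dextrose 148 sites were observed where 341.3 were expected, a density ratio of 0.434 (95% interval 0.361 to 0.518). Both intervals lay below 1. The galactose ratio was 0.670 when the windows were shortened to 500 bp and 0.615 among positions with at least 2 intervals.

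Part of this deficit lay in reading frames of resident Ty elements, the copies of the transposon family that the reference genome already carries, often beside tRNA genes. Of the 159 protein-coding genes in the windows, 29 were recognised as Ty frames, and they made up 14805 (23.8%) of the coding positions. They held 16 galactose sites where 2780.9 were expected, a density ratio of 0.00575 (95% interval 0.00329 to 0.00935), and 1 dextrose site where 69.7 were expected. In galactose 24 of the 29 Ty frames held no site and none held more than 6. The lowest mapping score among the deposited intervals was 30. How far reads from repeated sequence can reach that score was not tested, so a count near 0 in a Ty frame is not a measured absence of insertion.

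Without the Ty frames the density ratio was 0.520 (95% interval 0.504 to 0.536) in galactose, with 4949 sites in 47420 positions. That is 104.4 sites per kb of coding sequence, against 200.6 expected from non-coding positions. In dextrose it was 0.541 (95% interval 0.451 to 0.645), with 147 sites, or 3.10 sites per kb against 5.73 expected. The remaining results leave the 29 recognised Ty frames out unless stated. A further 5 nearly unhit frames, named below, were not recognised by the rule and stay in. Without them too the galactose ratio was 0.548 (95% interval 0.532 to 0.565). Intervals of different length gave like values in galactose. The ratio was 0.531 (95% interval 0.511 to 0.552) among intervals of 96 bases, the full length, 0.511 (0.481 to 0.542) among those of 50 to 95 bases and 0.489 (0.445 to 0.536) among those of at most 49 bases. In dextrose it was 0.450 (0.354 to 0.566) among full-length intervals and 0.828 (0.612 to 1.11) among those of 50 to 95 bases, with only 2 sites in shorter ones. Repeated hits on a position add no further site, and in the fullest 10 bp step of distance 25.2% of the coding and 30.2% of the non-coding strand positions were occupied in galactose, against 1.10% and 2.50% in dextrose.

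The deficit was smallest between 200 and 400 bp from the tRNA gene and larger farther out. In that step the galactose density ratio was 0.847 (95% interval 0.800 to 0.895), with 263 sites per kb at coding positions against 311 expected. Between 400 and 600 bp it was 0.521 (0.491 to 0.553), between 600 and 800 bp 0.407 (0.381 to 0.434) and between 800 and 1000 bp 0.416 (0.388 to 0.445). In the first 200 bp, where few coding positions lie, it was 0.667 (0.580 to 0.764). In dextrose the ratios beyond 200 bp were 0.741, 0.617, 0.489 and 0.458, and neighbouring values lay within each other's intervals. The first 200 bp held 1 site where 19.8 were expected.

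**Figure D1:**
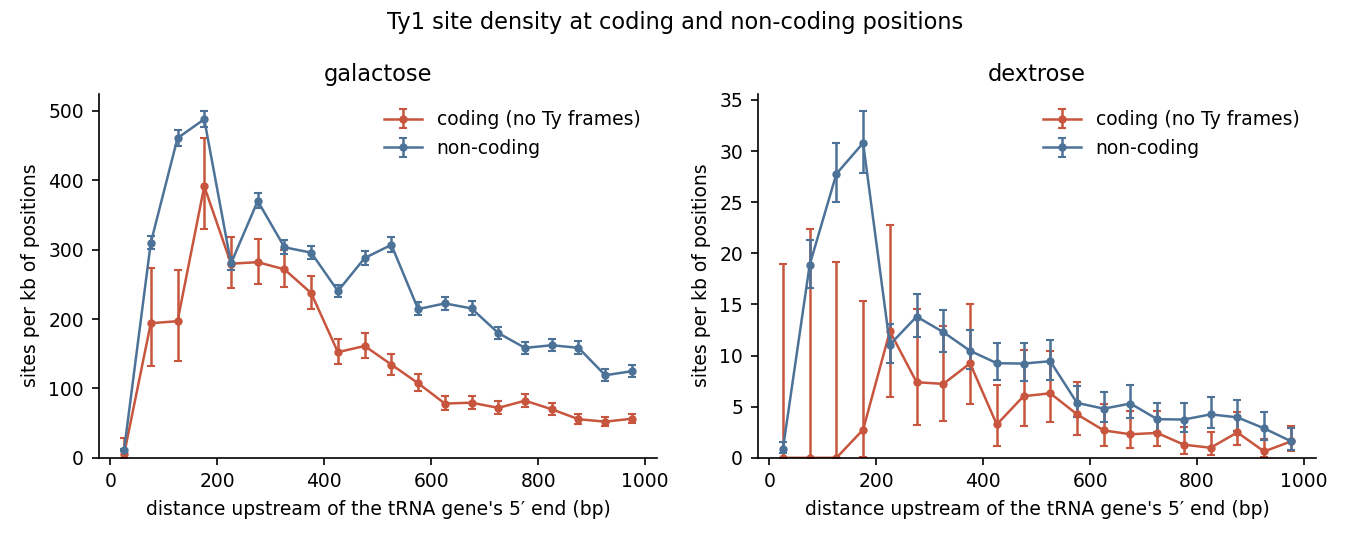
Sites per kb of positions (y axis) by distance upstream of the tRNA gene in steps of 50 bp (x axis) at coding positions without the recognised Ty frames and at non-coding positions, in galactose (left) and dextrose (right, own scale). Bars are exact Poisson 95% intervals. In galactose the coding line meets the non-coding line near 200 bp and lies below it beyond 400 bp, where the density ratios were 0.521, 0.407 and 0.416.

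Distance from the tRNA gene and depth inside the protein-coding gene go together, since the far end of a window tends to lie deeper in a gene. Each differed with the other held within limits in galactose. Within 500 bp of the tRNA gene the density ratio was 0.784 (95% interval 0.746 to 0.823) for the first 200 bp of a gene, counted from the end that faces the tRNA gene, and 0.530 (0.471 to 0.595) deeper in. Between 500 and 1000 bp it was 0.476 (0.449 to 0.503) for the first 200 bp of a gene and 0.384 (0.363 to 0.405) deeper in. At either distance the intervals of the shallow and the deep positions did not overlap. In dextrose the corresponding ratios were 0.588 and 0.601 within 500 bp and 0.510 and 0.550 beyond, and no order could be read from them because the intervals overlapped. The galactose order by depth did not hold under every definition of a site. With the Ty frames included and at least 2 intervals per position, the galactose ratio beyond 400 bp inside a gene was 0.779. That lay above the ratio of all coding positions in the same setting.

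Genes met the window in either of 2 orientations. Where the gene lies on the strand opposite to the tRNA gene, its start faces the tRNA gene and the space between them holds the promoter of the gene. Where it lies on the same strand, its end faces the tRNA gene and the space holds the terminator region. For genes whose start faces the tRNA gene the galactose density ratio was 0.533 (95% interval 0.513 to 0.554), and for genes whose end faces it 0.503 (0.481 to 0.527). The dextrose ratios were 0.593 (0.475 to 0.732) and 0.467 (0.345 to 0.620). The intervals of the orientations overlapped in both libraries. Among genes with a standard name the galactose values were 0.451 and 0.446, closer still.

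Depths of the sites inside the gene are given by orientation, without correction for the positions available at each depth. Galactose sites in genes whose start faces the tRNA gene numbered 2774, in 65 of 71 such genes, at a median of 138 bp (quartiles 52 and 247) inside the start, and 1054 of them lay within 100 bp of it. Genes whose end faces the tRNA gene held 2063 sites, in 50 of 56 genes, at a median of 155 bp (quartiles 67 and 272) before the end, and 721 lay within 100 bp of it. These counts leave out 3 genes that span the 5′ end of the tRNA gene itself. They are YGR164W with 35 galactose sites in its 166 positions, YJL007C with 75 in 239 and YPR159C-A with 2 in 65. In dextrose the medians had the opposite order, 181 bp inside the start over 95 sites and 165.5 bp before the end over 52 sites.

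Over all intervals the first 50 bp inside the start had a higher density ratio than the first 50 bp inside the end, a difference that was within counting error among full-length intervals. At the start side the galactose density ratio was 0.822 (95% interval 0.760 to 0.887) in the first 50 bp, and at the end side it was 0.626 (0.566 to 0.691). Among full-length intervals the values were 0.705 (0.635 to 0.782) and 0.640 (0.564 to 0.725). Between 50 and 100 bp the start side gave 0.511 (0.460 to 0.565) and the end side 0.552 (0.493 to 0.616). Between 100 and 200 bp the values were 0.606 and 0.553, and between 200 and 400 bp 0.445 and 0.464. Beyond 400 bp inside the gene they were 0.271 (0.236 to 0.310) and 0.331 (0.286 to 0.381). On the start side the value between 50 and 100 bp was lower than in both neighbouring steps, although its interval overlapped that of the next step (0.563 to 0.651). In dextrose the start side gave 0.597, 0.259, 0.827, 0.747 and 0.384 in the same steps, with the 50 to 100 bp value resting on 6 sites where 23.2 were expected, and the end side gave 0.556, 0.407, 0.468, 0.505 and 0.308. With the Ty frames included, the value beyond 400 bp over both orientations was 0.226 in galactose, with 0.779 among positions with at least 2 intervals, 0.413 with sites within 5 bp merged and 0.137 for intervals no longer than 49 bases. The 0.779 lay above the ratio of all coding positions in the same setting, so a lower density deep in genes was not seen there.

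The lower density did not begin at the gene border. The border was the end of the first gene that each window meets. It was taken in the 116 windows that hold a gene but no recognised Ty frame and no gene spanning the 5′ end of the tRNA gene. Windows of the nearly unhit frames named below stay in. The expected density came from the 126 windows without any coding sequence. In galactose the non-coding positions 200 to 300 bp before the border had a density ratio of 0.982 (95% interval 0.945 to 1.02), and those 300 to 400 bp before it 1.04 (1.00 to 1.08). Nearer to the border the ratio was 0.748 (0.705 to 0.792) at 200 to 150 bp, 0.630 (0.592 to 0.669) at 150 to 100 bp, 0.616 (0.579 to 0.655) at 100 to 50 bp and 0.719 (0.678 to 0.761) in the last 50 bp before the gene. The first 50 bp inside the gene had a ratio of 0.692 (0.650 to 0.737), and the interval of that value overlapped the interval of the last 50 bp outside. Inside, the ratio was 0.494 (0.457 to 0.533) at 50 to 100 bp, 0.460 (0.429 to 0.493) at 200 to 300 bp and 0.275 (0.250 to 0.302) beyond 400 bp. Over the 116 windows together, the ratio thus left 1 on the non-coding side, within 200 bp of the gene. It showed no step beyond counting error at the border itself, and was lower again past the first 50 bp of the gene. Windows whose first gene has a systematic name only were already below 1 farther out, as given below.

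In dextrose, too, the ratio over both orientations together was near 1 far from the border and lower on the non-coding side within 200 bp of it. The ratios were 1.00 and 0.961 at 400 to 300 and 300 to 200 bp before the border, 0.698 (95% interval 0.508 to 0.937), 0.472 (0.325 to 0.663), 0.562 (0.398 to 0.774) and 0.584 (0.409 to 0.811) in the following 50 bp steps, and 0.539 (0.353 to 0.789) in the first 50 bp inside. At 50 to 100 bp inside it was 0.284 (0.146 to 0.499).

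Over all galactose intervals, the ratio between 150 and 50 bp before the gene was lower at gene starts than at gene ends. At 150 to 100 bp before a start the galactose ratio was 0.552 (95% interval 0.506 to 0.601), against 0.737 (0.675 to 0.803) before a gene end. At 100 to 50 bp the values were 0.556 (0.511 to 0.605) before a start and 0.701 (0.640 to 0.766) before an end. In the last 50 bp before the gene they were alike, 0.724 (0.671 to 0.780) and 0.712 (0.650 to 0.777). The first 50 bp inside then gave 0.753 (0.696 to 0.814) past a start and 0.611 (0.551 to 0.675) past an end, but 0.635 (0.569 to 0.706) and 0.633 (0.557 to 0.716) among full-length intervals. The difference at 100 to 50 bp was not seen among full-length intervals either, with 0.452 (0.400 to 0.508) before a start and 0.470 (0.408 to 0.538) before an end. At 150 to 100 bp it was, with 0.464 (0.412 to 0.522) and 0.623 (0.552 to 0.7002). In dextrose the values at 150 to 100 bp were 0.432 (0.259 to 0.677) before a start and 0.534 (0.298 to 0.887) before an end, with overlapping intervals. All these intervals cover counting error and not the spread among the 66 windows with a start and the 50 with an end. Whether starts and ends differ beyond that spread was not tested.

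**Figure D2:**
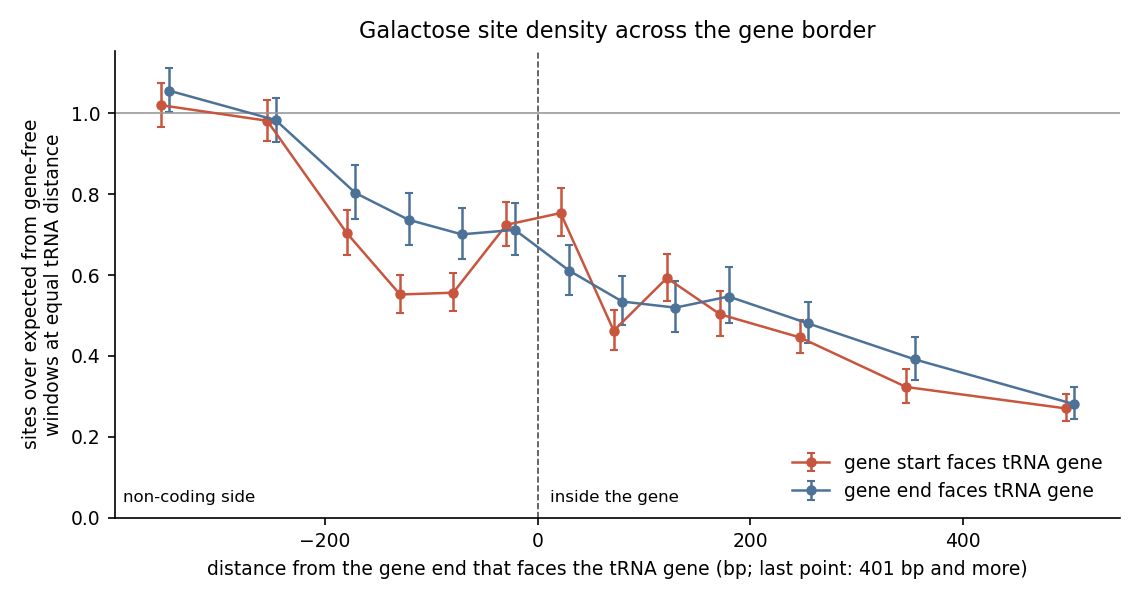
Observed over expected galactose sites (y axis, expected from windows without coding sequence at equal distance from the tRNA gene) by distance from the gene end that faces the tRNA gene (x axis, bp; negative values lie outside the gene), for 66 windows with a gene start and 50 with a gene end at the border; bars are 95% counting intervals. The start line dips to 0.552 at 150 to 100 bp outside and is at 0.753 in the first 50 bp inside, where the end line is at 0.611; among full-length intervals these last values were 0.635 and 0.633.

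Within single windows, coding and non-coding positions were close. When each coding position was set only against non-coding positions of the same window in the same 100 bp step, which limits the comparison to 182 steps that hold both kinds and so to the neighbourhood of the gene border, the pooled density ratio was 0.895 (95% interval 0.831 to 0.963) in galactose. Of 148 windows, Ty windows included, the coding density was lower in 60, higher in 52 and equal in 36. Windows without a site on either side counted as equal. Without Ty frames it was lower in 60, higher in 50 and equal in 8 of 118 windows. In dextrose the ratio was 0.777 (0.488 to 1.24), with a lower coding density in 26 windows, a higher one in 16 and an equal one in 106 (76 without Ty frames). The dextrose direction turned to 1.68 when the 3′ end of the interval was used. The galactose direction turned in 3 settings, with ratios of 1.04 for windows of 500 bp, 1.04 when the 3′ end of the interval was used and 1.16 among intervals of at most 49 bases. Among genes with a standard name the galactose ratio was lower than the 0.895 over all genes, as listed with the alternatives below. Over all genes, a difference between the coding and the non-coding side of one border was therefore small. Its direction depended on the window length and on how a site was defined.

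Single genes spread widely around the pooled value. Among the 147 genes with at least 10 expected galactose sites, 92 (62.6%) had under 0.5 of the expected number. Without Ty frames it was 63 of 118 genes (53.4%), while the non-coding parts of the 275 windows were under 0.5 of the mean non-coding density in 58 cases (21.1%). At the other side, 19 of the 118 genes (16.1%) exceeded the expected number, against 125 of 275 non-coding parts (45.5%). The median density ratio was 0.476 (quartiles 0.186 and 0.732) over the 118 genes and 0.930 (quartiles 0.578 and 1.29) over the non-coding parts. The 130 genes other than Ty frames held a median of 24.5 galactose sites (quartiles 6.25 and 56.75), and the 15 genes with the most sites held 1924, which was 38.8% of the total.

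The gene with the most sites was YIL014C-A, a reading frame of 315 bp on chromosome IX (325212 to 325526, build R64). It lay 222 to 536 bp upstream of the tRNA gene YNCI0009W, between it and a tRNA gene that points the other way. It held 217 galactose sites where 94.0 were expected, a density ratio of 2.3 (95% interval 2.01 to 2.64), and 11 dextrose sites where 3.41 were expected. YGL118C (chromosome VII, 288014 to 288451) held 160 galactose sites against 75.5 expected and 3 dextrose sites. These were the highest density ratios among genes with at least 10 expected sites, together with YMR158C-A (chromosome XIII, 573194 to 573331; 90 galactose sites against 44.7 expected), YFL019C (chromosome VI, 100252 to 100605; 66 against 33.0) and REC8 (chromosome XVI, 569336 to 571378; 24 against 13.8). REC8 encodes the cohesin subunit of meiosis, and its window reaches 110 bp of the gene.

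Several other frames known by a systematic name alone were among the 15 with the most sites. YMR106W-A (chromosome XIII, 480924 to 481187) held 131 galactose sites where 78.7 were expected and 3 dextrose sites. YHR125W (chromosome VIII, 358858 to 359163) held 127 against 85.6 expected, with 4 in dextrose. YER135C (chromosome V, 437952 to 438344) held 120 against 96.3, with 4 in dextrose. The interval of each of these 3 ratios lay above 1, whereas that of YER181C (chromosome V, 551473 to 551796, with 102 galactose sites against 112.6 expected and 4 in dextrose) included 1, at 0.739 to 1.10. Genes named here, above and below for many sites or high ratios were chosen from these same counts. The choice favours ratios above 1, and the intervals make no allowance for it.

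Genes with a standard name and many sites mostly held fewer than expected or about the expected number. RGI2 (chromosome IX, 247902 to 248396), a gene induced in respiratory growth, held 151 galactose sites against 100.1 expected, a ratio of 1.51 (95% interval 1.28 to 1.77), and 3 dextrose sites. BNA5 (chromosome XII, 605758 to 607119), the kynureninase of NAD synthesis, held 144 against 141.8, and CBT1 (chromosome XI, 47157 to 47972), which acts in the maturation of a mitochondrial mRNA, 125 against 134.3. The intervals of both ratios included 1. TGL2 (chromosome IV, 567723 to 568703), a lipase of triacylglycerol breakdown, held 142 against 192.7, a ratio of 0.737 (95% interval 0.621 to 0.869).

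The others lay lower. ERF2 (chromosome XII, 627118 to 628197), a subunit of the enzyme that palmitoylates Ras, held 118 galactose sites against 189.3 expected. IAT4 (chromosome IV, 1257358 to 1258056) held 100 against 154.7. FAR3 (chromosome XIII, 379586 to 380200), needed for the arrest of the cell cycle by pheromone, held 92 against 163.7. All 3 had a ratio between 0.56 and 0.65, and dextrose counts of 4, 1 and 2. PTR3 (chromosome VI, 210937 to 212973), part of the sensor of external amino acids, held 98 against 173.8, and NPR3 (chromosome VIII, 59123 to 62563), part of the complex that restrains TORC1 when amino acids are short, 97 against 186.3.

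Dextrose counts per gene were low. Of the 118 genes, 57 held no dextrose site, the median was 1 and the highest count was 11, reached by YIL014C-A and PTR3. At PTR3 the 11 dextrose sites stood against 5.24 expected, a ratio of 2.10 (95% interval 1.04 to 3.77), while its galactose ratio was 0.564 (0.458 to 0.687). The dextrose interval makes no allowance for the choice of the highest count among 118 genes. CBT1 came next with 9 dextrose sites against 3.71 expected. Over the 118 genes the site counts of the libraries had a Spearman rho of 0.729 and the density ratios one of 0.517, as a description, since the genes share the libraries and most dextrose counts were 0 or 1. Of the 148 dextrose member sites, 103 (69.6%, 95% interval 61.5 to 76.9) were at a position and strand also found in galactose. For dextrose sites at non-coding positions, where galactose sites are also denser, it was 2042 of 2219 (92.0%). Both shares were above the galactose occupancy of the fullest 10 bp step of distance, 25.2% of coding and 30.2% of non-coding strand positions. Why the libraries share positions was not tested, so the dextrose values cannot be read as an independent second measurement.

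At 8 genes other than the recognised Ty frames there was no galactose site where at least 10 were expected. CYR1 (chromosome X, 425157 to 431237), the adenylate cyclase that makes cAMP, had 57.9 expected over 359 positions, which sets the upper bound of its ratio at 0.0637. RSC8 (chromosome VI, 227513 to 229186), a subunit of the RSC chromatin remodeller, had 35.8 expected and YJL027C (chromosome X, 391833 to 392249) 42.1. SIS2 (chromosome XI, 576435 to 578123), an inhibitor of a protein phosphatase, had 21.6, GAS2 (chromosome XII, 816094 to 817761), an enzyme of the spore wall, 20.6 and VPS55 (chromosome X, 518763 to 519185), a protein of endosome traffic, 15.7. The other 2 were YAR010C (chromosome I, 164544 to 165866; 119.5 expected) and YLR035C-A (chromosome XII, 215440 to 218907; 97.7 expected). YAR010C had the same length, 1323 bp, as 28 short Ty frames of the gene table, although it had no longer partner and was not recognised as a Ty frame. The same holds for YDR170W-A (chromosome IV, 803195 to 804517), with 7 galactose sites against 121.8 expected. YIL082W-A (chromosome IX, 205635 to 210132) held 4 against 83.3 and YJL114W (chromosome X, 197915 to 198595) 1 against 84.2. These 3 and the unhit YAR010C and YLR035C-A, a set of 5 singled out after their values were seen, held 12 galactose sites where 506.4 were expected, and without them and the Ty frames the density ratio was 0.548 (95% interval 0.532 to 0.565) in galactose and 0.568 (0.474 to 0.677) in dextrose. None of the 8 genes had a dextrose site either, but at most 3.18 were expected there.

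**Figure D3:**
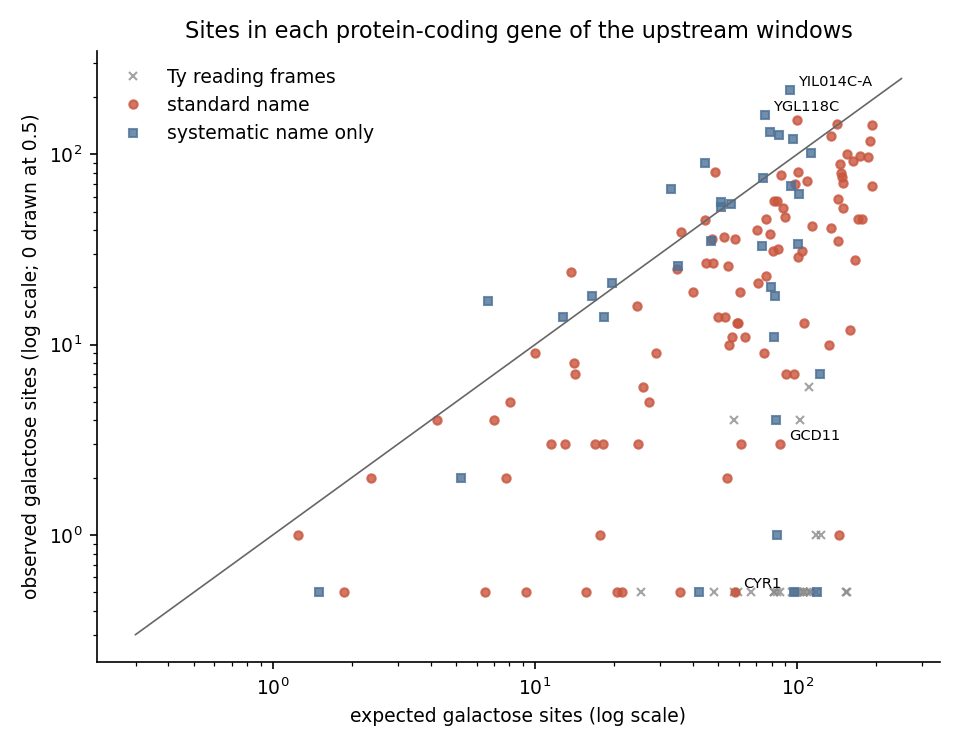
Observed galactose sites per gene (y axis, log scale, genes without a site drawn at 0.5) against expected sites (x axis, log scale) for the 159 protein-coding genes in the windows; the line marks equality. Of genes with at least 10 expected sites, 13 of 31 frames with a systematic name only and 6 of 87 genes with a standard name lie above the line, with YIL014C-A highest at 217 sites, and 24 of the 29 Ty frames lie on the bottom row.

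Genes with a standard name and frames with a systematic name alone differed in pooled galactose density. The 96 genes with a standard name had a galactose density ratio of 0.449 (95% interval 0.433 to 0.465), and the 34 frames with a systematic name only had 0.760 (0.723 to 0.799). In dextrose the values were 0.512 (0.413 to 0.630) and 0.626 (0.451 to 0.848), whose intervals overlapped. Frames that carry only a systematic name include short ones for which a protein product has not been shown, and the split by length showed where the difference lay. The 22 such frames of up to 500 bp had a galactose ratio of 1.11 (1.05 to 1.17), with 11 of the 19 that had at least 10 expected sites above expectation. The 14 genes of up to 500 bp with a standard name had 0.568 (0.523 to 0.617). Among longer genes the values were 0.245 (0.213 to 0.280) in 12 frames with a systematic name only and 0.429 (0.412 to 0.447) in 82 with a standard name. The low value of the 12 frames rested on the 5 nearly unhit frames named above, without which the other 7 had 0.542 (0.470 to 0.623). Without those 5, all frames with a systematic name only had a galactose ratio of 0.983 (0.935 to 1.03) and a dextrose ratio of 0.770 (0.555 to 1.04). Dextrose gave 0.827 (0.586 to 1.14) for the 22 short frames and 0.472 (0.263 to 0.781) for the 14 short genes with a standard name. Over the 118 genes the galactose density ratio had a Spearman rho of -0.42 with gene length, as a description across genes.

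The profile across the border also differed by kind of name. In 87 windows whose first gene has a standard name the galactose density ratio against gene-free windows was 1.10 and 1.05 at 400 to 300 and 300 to 200 bp outside, 0.585 (95% interval 0.543 to 0.629) at 100 to 50 bp outside, 0.634 (0.587 to 0.684) in the first 50 bp inside and 0.399 (0.361 to 0.441) at 50 to 100 bp inside. In 29 windows whose first gene has a systematic name only it was 0.838, 0.789, 0.705 (0.629 to 0.787), 0.844 (0.757 to 0.938) and 0.743 (0.658 to 0.836) at the same places. At these frames the density just inside was no lower than just outside. The 29 windows include those of the 5 nearly unhit frames, which begin at least 393 bp from the tRNA gene. Spread among windows is not covered by these intervals, and the kinds of name were not tested against it.

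**Figure D4:**
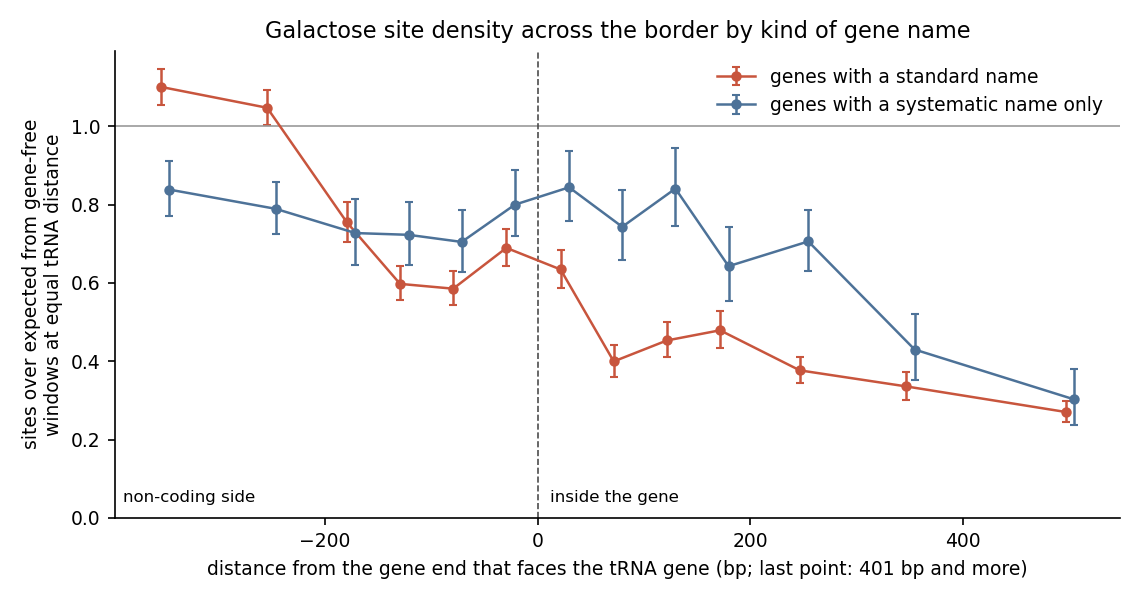
Observed over expected galactose sites (y axis, expected from windows without coding sequence at equal distance from the tRNA gene) by distance from the gene border (x axis, bp; negative values lie outside the gene), for 87 windows whose first gene has a standard name and 29 whose first gene has a systematic name only; bars are 95% counting intervals. At 50 to 100 bp inside the gene the lines are at 0.399 and 0.743.

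A list of 296 genes of essential functions was looked up in the windows, and 6 of the 294 found in the gene table reached one. Together they held 160 galactose sites where 527.9 were expected, a density ratio of 0.303 (95% interval 0.258 to 0.354), against 0.533 (0.517 to 0.550) for the other 124 genes. The dextrose library had 4 sites in them against 14.6 expected. PRP6 (chromosome II, 344602 to 347301), a splicing factor, held 71 galactose sites against 149.1 expected. RPC17 (chromosome X, 414285 to 414770), a subunit of RNA polymerase III itself, held 41 against 135.2, and RPN7 (chromosome XVI, 742454 to 743743), a proteasome subunit, 31 against 80.8. SES1 (chromosome IV, 489508 to 490896), the seryl-tRNA synthetase, held 13 against 58.8. GCD11 (chromosome V, 205251 to 206834), a subunit of the initiation factor eIF2, held 3 against 86.3 and RPA135 (chromosome XVI, 577585 to 581196), a subunit of RNA polymerase I, 1 against 17.7. All 6 were under 0.5 of the expected number, as were 53.4% of the 118 genes. The list was not a full set of essential genes, so the other 124 genes can include essential ones. The values therefore do not compare essential with non-essential genes. No test of the difference between the 6 genes and the others was made.

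Strand shares are given with the Ty frames included. The strand of the sites was nearly balanced in galactose, where 52.9% of the member sites (95% interval 51.5 to 54.3) lay on the strand of the tRNA gene, against 51.9% (51.5 to 52.3) of the sites at non-coding positions. In dextrose it was 42.6% (34.49 to 50.95) against 55.8% (53.7 to 57.9). Without the Ty frames the member shares were 52.7% (51.3 to 54.1) in galactose and 42.9% (34.7 to 51.3) in dextrose. Relative to the protein-coding gene itself, 48.3% (46.9 to 49.7) of the galactose and 54.7% (46.3 to 62.9) of the dextrose member sites lay on the coding strand.

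Coding sequence elsewhere was compared in the same way near tRNA genes. Beyond 2 kb of any tRNA gene, coding and non-coding positions were compared without steps of distance. Quotients to that region thus set a ratio at equal distance against one without this matching. In galactose the density ratio without Ty frames was 0.520 in the upstream windows, 0.521 (95% interval 0.498 to 0.544) from 1 to 2 kb upstream, 0.553 (0.528 to 0.578) in the 1000 bp downstream of tRNA genes and 0.607 (0.597 to 0.616) farther than 2 kb from any tRNA gene. The ratio in the windows was 0.999 times that from 1 to 2 kb (95% interval of the quotient 0.946 to 1.05) and 0.857 times that beyond 2 kb (0.828 to 0.887). The quotient to the distant regions turned among full-length intervals, where the windows had 0.531 and the distant regions 0.421 (0.410 to 0.432), a quotient of 1.26 (1.205 to 1.32). In dextrose the windows had 0.541 and the distant regions 1.00 (0.951 to 1.05), a quotient of 0.541 (0.450 to 0.652). Among full-length dextrose intervals the values were 0.450 and 0.559 (0.490 to 0.639), and the interval of the quotient, 0.614 to 1.05, included 1. Whether coding sequence in the windows differs from that elsewhere thus depended on the class of interval, while the deficit in the windows themselves was present in full-length intervals of both libraries.

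**Figure D5:**
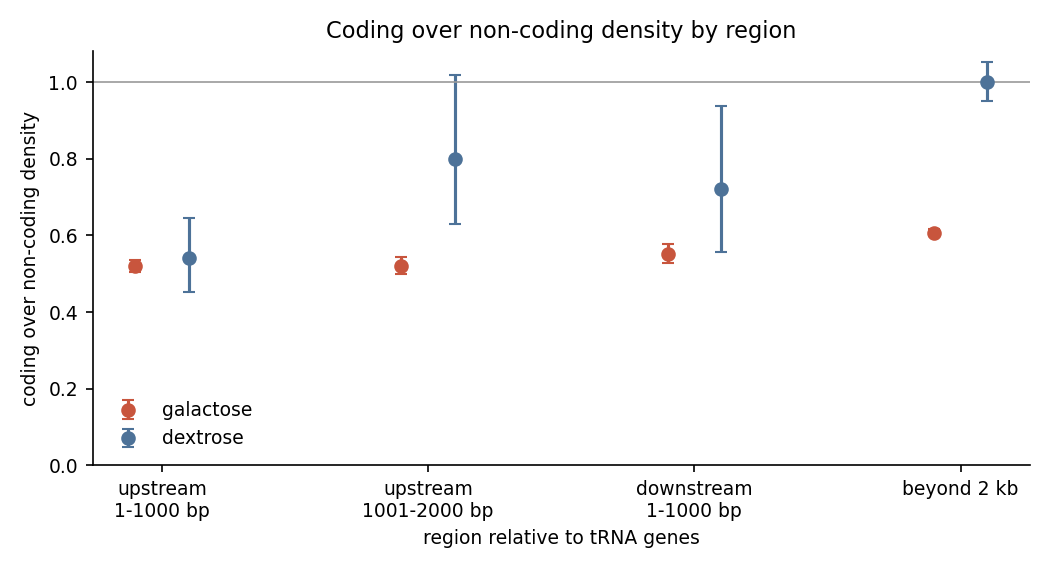
Coding over non-coding density without the recognised Ty frames (y axis, where 1 means equal density) in 4 regions relative to tRNA genes (x axis), in galactose and dextrose, all intervals. Bars are 95% counting intervals. The galactose points lie between 0.520 and 0.607, and the dextrose points between 0.541 in the upstream windows and 1.00 beyond 2 kb. The points beyond 2 kb are not matched for distance from a tRNA gene.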

How the data were processed

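Ty1 insertion sites were profiled by PCR from MseI fragments selected at 200 to 1000 bp, per the labels' protocols. The submitters' processing notes name Trimmomatic 0.39, BWA 0.7.19, SAMtools 1.22, bedtools 2.31.1, Picard 3.4.0 and the R64 build. Settings were not given in the sources used here. The authors deposited aligned intervals with strand and a mapping score of 30 to 60 and, as the deposited names state, removed duplicates. The intervals carry no normalization. The other 21 of the 23 samples, MNase-seq in 8 groups, were not analysed here.

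Genes came from a RefSeq table of R64 with 275 nuclear tRNA and 6002 nuclear protein-coding genes, strands from systematic names. A position in several windows counted for the nearest tRNA gene. Ty frames were recognised as pairs of genes on a strand sharing their 5′ end, of 700 to 1500 bp and over 3000 bp. Long terminal repeats are not marked in that table and stayed non-coding. Shares carry exact Clopper-Pearson and counts exact Poisson 95% intervals. The interval planned for density ratios assumes 1 common ratio; it was replaced by a binomial interval on the observed count and the effective non-coding count, since the ratio varied with distance (the planned galactose bounds, 0.405 and 0.430, exclude 0.404). Intervals of quotients add log-scale variances.

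Genes are named by rule: the 15 with most galactose and the 5 with most dextrose sites, the 5 highest and lowest galactose ratios and those without a site among genes with at least 10 expected sites, and essential-list members. Members, lists and rules were chosen with earlier results of these data known. The border profile, the splits by name and gene length and those by intervals under 96 bases were added after seeing the data. Python 3.11.15, numpy 2.4.6, pandas 2.3.3, scipy 1.17.1 and matplotlib 3.10.9 were used, and the ratio was tested on simulated data.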

Additional observations from a re-analysis of the deposited data

Results flagged for a closer look

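The difference in strand share between coding positions, Ty frames included, and non-coding positions had opposite signs in the libraries, but in galactose it was within counting error. The share on the strand of the tRNA gene was 1.01 percentage points higher at coding than at non-coding positions in galactose (52.9% against 51.9%), while in dextrose the difference was -13.3 percentage points (42.6% of 148 sites against 55.8% of 2219). The difference between the libraries was not tested, since each medium had 1 library.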

How the results depend on the processing

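The alternatives numbered 21, 14 planned and 7 added after seeing the data. The density ratio of all coding positions stayed below 1, at 0.363 to 0.670 over 21 alternatives in galactose and 0.151 to 0.653 over the 20 with a value in dextrose. Values in the following order are galactose all coding, start side, end side, over 400 bp inside, and share of upstream sites. Without Ty frames they were 0.520, 0.533, 0.503 and 0.296, and dextrose 0.541 and start side 0.593. Also without YAR010C and YLR035C-A (added) they were 0.532, 0.545, 0.515 and 0.306, and dextrose 0.553 and 0.605. Also without YDR170W-A, YIL082W-A and YJL114W (added) they were 0.548, 0.565, 0.525 and 0.316, and dextrose 0.568 and 0.626. Without Ty frames and with 96-base intervals (added) they were 0.531, 0.532, 0.531 and 0.362, and the dextrose share 5.29%. With 96-base intervals alone the end side gave 0.436 and over 400 bp 0.277. With genes of standard name (added) they were 0.449, 0.451, 0.446, 0.317 and 5.77%, the same-window ratio 0.794, dextrose start side 0.579 and share 4.48%. Against gene-free windows (added) the first 3 were 0.367, 0.359 and 0.378.

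With at least 2 intervals per position they were 0.615, 0.587, 0.655, 0.779 and 8.86%, dextrose share 11.1%. With sites within 5 bp merged, which joins more sites where they are dense, they were 0.601, 0.567, 0.649, 0.413 and 16.8%. For 500 bp windows the first 3 were 0.670, 0.698 and 0.603, the shares 5.41% and, in dextrose, 3.38%, and the same-window ratio 1.04. Without 100 bp at the gene end the first 3 were 0.363, 0.350 and 0.381, the shares 5.57% and 4.60%. With the 3′ end they were 0.447 for all coding, 0.499 for the end side, 0.312 over 400 bp and 9.79%, the same-window ratios 1.04 and 1.68 (dextrose), and dextrose 0.531, end side 0.557 and share 8.25%. With intervals of at most 49 bases (added) all coding gave 0.377, end side 0.339, over 400 bp 0.137, share 7.92%, same-window ratio 1.16, and dextrose 0.151 and share 1.35%. With 50 to 95 bases (added) over 400 bp gave 0.165, and dextrose 0.653, start side 0.679, end side 0.615 and share 9.64%. For tRNA genes with no other within 2 kb the start side gave 0.382 and the share was 8.68%, and without the window of YNCI0009W, the one with the most members, the start side gave 0.372. The cause of these shifts was not tested beyond the construction named.

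No paired analysis was possible because each medium had 1 library. Alternatives on uniquely mappable positions and on MseI fragments were not run, since no genome sequence was used here, and values with under 10 expected sites, or same-window values with under 50 sites, were left out. With 148 dextrose members, differences among dextrose ratios were mostly not detectable at this depth.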
